A study of Mus musculus with 28 samples.

Results

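H3K27ac regions in gene deserts of mouse embryonic stem cells were only slightly narrower than those elsewhere, with a median of 742.5 bp against 804 bp nearer to genes. Close to 1 in 2 of the desert regions had no other within reach, and a few dense groups lay beside genes such as Myc, Enc1, Sox2 and Zfp281. Of 57857 consensus H3K27ac regions, 2578 (4.46%) lay on chromosomes 1 to 19, were narrower than 10 kb and had their centre 50 kb or more from the nearest body of any RefSeq protein-coding gene. The other regions on these chromosomes were 10747 between genes but nearer than 50 kb to one, 43632 centred inside a protein-coding gene and 370 of 10 kb or wider. The desert regions were chosen by their measured position and width, so their distances, densities and neighbouring genes are given as a description, without a test. Contact with H3.3, noncoding genes and promoter sequence did not enter the choice.

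The regions came from CUT&RUN, in which an antibody directs a nuclease to its target in nuclei and the released DNA is sequenced, in the male mouse embryonic stem cell line E14 grown with LIF. A medium with LIF and 2i is also described in the labels, without naming the libraries it was used for. The study made mutants of the histone variant H3.3 with the change K122A, at lysine 122, in its 2 genes. The mutant genotypes were H3f3a_AA_H3f3b_WTWT, H3f3a_WTWT_H3f3b_AA, H3f3a_AA_H3f3b_WTA and H3f3a_WTA_H3f3b_AA, in which WT and A name the alleles of each gene, and they were set against Wildtype cells. Each of 4 targets had 7 libraries, 28 in all: H3.3, H3K122ac, H3K27ac and a control that received no antibody. Of each 7, H3f3a_AA_H3f3b_WTA had 2 per target, from clone1 and clone2, each other mutant 1, and Wildtype 2. The positions analysed are 1 consensus list for H3K27ac and 1 for H3.3, with no value per library. Mutant and Wildtype cells were therefore not compared here, the genotypes in which a given desert region is acetylated are not known, and the depth is unknown. Intervals below are exact 95% intervals that cover counting over regions or genes, not the spread between cultures, and differences between classes of regions were not tested.

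H3K27ac, acetylation of lysine 27 of histone H3, marks active promoters and enhancers. Enhancers are stretches of DNA bound by transcription factors that raise the transcription of a gene, sometimes across long distances by looping, and genes of developmental regulators are often flanked by long stretches without other protein-coding genes that hold such elements. H3.3 is the histone H3 variant that is placed into chromatin outside DNA replication, among other places at promoters and enhancers. The nearest gene of a region is used below as its address, and whether a region acts on that gene was not measured. The list carried H3K27ac in or within 1 kb of all 8 embryonic stem cell markers (Pou5f1, Sox2, Nanog, Esrrb, Klf4, Zfp42, Tdgf1 and Fbxo15), of 0 of 4 primitive endoderm markers (Gata4, Gata6, Sox17 and Pdgfra) and of 1 of 4 fibroblast markers (Thy1).

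Desert means free of protein-coding genes, not of genes. The centres of 560 of the 2578 desert regions (21.7%, 20.1 to 23.4%) lay in an annotated gene that is not protein-coding, against 17.2% (16.5 to 17.9%) of the regions between genes nearer than 50 kb, and 74 regions (2.87%) touched the promoter window of a long noncoding RNA (lncRNA), the 250 bases before to 50 bases after a start site. The sequences of 5 of these windows are printed from RefSeq (GRCm38.p6, the coordinates of mm10). Platr22, Platr26 and Lncenc1 are shown because they are lncRNAs known from embryonic stem cells. 4833407H14Rik and 1700030C10Rik are shown because, among windows that lie whole inside a desert region, theirs lay in regions that met the widest H3.3 regions. All 5 were chosen after their values were seen. The Platr22 window lies at chr1:136695961-136696260 (plus strand), in a desert region of 2270 bp that is 65.54 kb from Zfp281. The Platr26 window lies at chr2:71719167-71719466 (plus strand), in a region of 2564 bp that is 67.68 kb from Itga6. The Lncenc1 window lies at chr13:97434720-97435019 (plus strand), in a region of 5738 bp that is 181.5 kb from Enc1 and touched 2 H3.3 regions, the wider of 354 bp. The 4833407H14Rik window lies at chr19:53460372-53460671 (plus strand), in a region of 3793 bp that is 68.61 kb from Dusp5 and touched an H3.3 region of 811 bp. The 1700030C10Rik window lies at chr12:20815730-20816029 (minus strand), in a region of 1655 bp that touched an H3.3 region of 723 bp. Each is written 5′ to 3′ along its own gene, and capitals mark the octamer ATGCAAAT, a site type of OCT4, and CCACACCC, a site type of Krüppel-like factors, where a search of both strands found them.
Platr22: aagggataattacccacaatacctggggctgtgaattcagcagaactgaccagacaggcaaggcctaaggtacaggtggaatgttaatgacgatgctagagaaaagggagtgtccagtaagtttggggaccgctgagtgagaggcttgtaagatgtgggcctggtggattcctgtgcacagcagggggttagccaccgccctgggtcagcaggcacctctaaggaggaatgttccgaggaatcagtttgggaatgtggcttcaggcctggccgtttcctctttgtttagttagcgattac
Platr26: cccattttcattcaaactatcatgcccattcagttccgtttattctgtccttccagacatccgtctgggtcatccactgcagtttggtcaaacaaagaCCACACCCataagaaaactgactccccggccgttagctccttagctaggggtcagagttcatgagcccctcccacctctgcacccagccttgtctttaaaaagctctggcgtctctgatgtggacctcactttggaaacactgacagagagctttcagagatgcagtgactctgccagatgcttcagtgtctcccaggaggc
Lncenc1: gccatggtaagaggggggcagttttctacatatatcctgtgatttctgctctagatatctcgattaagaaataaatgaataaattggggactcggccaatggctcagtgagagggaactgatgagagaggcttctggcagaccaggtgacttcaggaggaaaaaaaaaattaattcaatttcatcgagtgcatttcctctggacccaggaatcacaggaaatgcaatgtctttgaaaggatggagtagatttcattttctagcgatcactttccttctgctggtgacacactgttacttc
4833407H14Rik: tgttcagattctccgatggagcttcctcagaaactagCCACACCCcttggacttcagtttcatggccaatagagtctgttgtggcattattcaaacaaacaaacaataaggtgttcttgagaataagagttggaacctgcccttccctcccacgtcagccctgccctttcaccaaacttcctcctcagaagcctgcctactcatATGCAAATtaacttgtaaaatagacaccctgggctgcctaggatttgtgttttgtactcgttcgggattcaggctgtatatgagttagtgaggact
1700030C10Rik: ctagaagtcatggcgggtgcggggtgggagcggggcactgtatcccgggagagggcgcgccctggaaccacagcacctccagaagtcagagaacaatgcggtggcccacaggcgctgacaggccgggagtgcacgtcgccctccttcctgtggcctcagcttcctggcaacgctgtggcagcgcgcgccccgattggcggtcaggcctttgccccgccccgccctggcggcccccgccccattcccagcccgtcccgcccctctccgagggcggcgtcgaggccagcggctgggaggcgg

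These 5 windows differed widely in base composition. The 1700030C10Rik window was 72.7% G or C with 29 CpG, whereas the Lncenc1 window was 42.3% G or C with 4 CpG and the 4833407H14Rik window 45.7% with 4 CpG. Platr22 had 52% with 6 CpG and Platr26 50.7% with 5 CpG. Over the 90 lncRNA windows touched by desert regions, where several start sites of 1 gene can add overlapping windows, the median was 50.5% G or C and 4 CpG. The 3185 other lncRNA windows 50 kb or more from a protein-coding gene had a median of 45.3% and 3 CpG, and the 31396 windows of all genes on these chromosomes had 53% and 7 CpG. The touched windows thus lay between the other desert windows and promoters in general in base composition.

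Short factor motifs were in few of the touched windows, and the intervals are wide. The SOX motif ACAATGG was in 6 of 90 touched windows (6.67%, 2.49 to 13.9%), in 6.75% of the other desert windows and in 3.61% of all windows. ATGCAAAT was in 3 of 90 (3.33%), against 2.61% and 1.75%, and CCACACCC in 4 of 90 (4.44%), against 2.57% and 3.57%. The STAT motif TTCCNGGAA was in 4 of 90 (4.44%, 1.22 to 11%), against 1.07% (0.74 to 1.49%) of the other desert windows and 1.18% of all windows. The E-box CACGTG was in 5 of 90 (5.56%), against 5.27% and 7.14%, and the ESRRB motif TCAAGGTCA in 1 of 90 (1.11%), against 0.408% and 0.417%. The TCF motif CTTTGAAG was in 0 of 90 (interval up to 4.02%), against 2.39% and 1.57%, and the exact forms searched for the OCT4-SOX2 composite, TFCP2L1 and the CTCF core were also in 0 of 90, against 0.0314%, 0.22% and 0.0628% of the other desert windows. A match is a string of letters and not a bound site, and overlapping windows of 1 gene or of neighbouring genes count more than once. The STAT count includes overlapping windows of C330002G04Rik that share a site. The SOX count includes such windows of Gm35963, and those of the neighbours Gm52389 and Gm32441. The intervals treat all windows as separate.

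Few lncRNA promoters in deserts were acetylated. Over all lncRNA genes on these chromosomes with a promoter window, 10.2% had H3K27ac there. Of 2719 that start 50 kb or more from a protein-coding gene 76 did (2.8%, 2.21 to 3.49%), against 461 of 3827 that start nearer (12%, 11 to 13.1%) and 421 of 2907 that start inside a protein-coding gene (14.5%, 13.2 to 15.8%). The differences were not tested, and they follow position relative to protein-coding genes, which the choice of regions used. H3.3 lay at a promoter window of 18 of the 2719 desert lncRNA genes, and 6 had both H3.3 and H3K27ac. These counts were 197 and 80 of the 3827 that start nearer, and 169 and 53 of the 2907 inside a protein-coding gene. The share with H3.3 over all lncRNA genes was not computed, and the differences were not tested. The 74 desert regions at lncRNA promoter windows had a median width of 1482 bp, against 742.5 bp for all desert regions. H3.3 touched 9 of the 74, against 3.34% of all desert regions. Contact with H3.3 was more frequent in wider regions, and the part of width in this count was not tested.

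Desert regions became sparser with distance. Distances to the nearest protein-coding gene ran from 50.028 to 1973 kb with a median of 115 kb and quartiles of 74.3 and 253 kb. Between 50 and 100 kb lay 1080 regions (41.9%), between 100 and 200 kb 688, between 200 and 500 kb 532, between 500 kb and 1 Mb 175, and beyond 1 Mb 103. Per Mb of available sequence there were 5.91 regions at 50 to 100 kb, 3.46 at 100 to 200 kb, 2.07 at 200 to 500 kb and 1.38 beyond 500 kb. Nearer to genes there were 71.5 regions per Mb within 1 kb and 9.42 per Mb at 25 to 50 kb. Gaps of over 100 kb between protein-coding genes left 835.6 Mb of desert sequence, 34.8% of the sequence considered, and it held 3.07 regions per Mb, against 18.5 per Mb in the nearer sequence between genes and 44.4 per Mb inside protein-coding genes. Another 16 desert regions lay beyond the outermost genes of a chromosome.

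**Figure D1:**
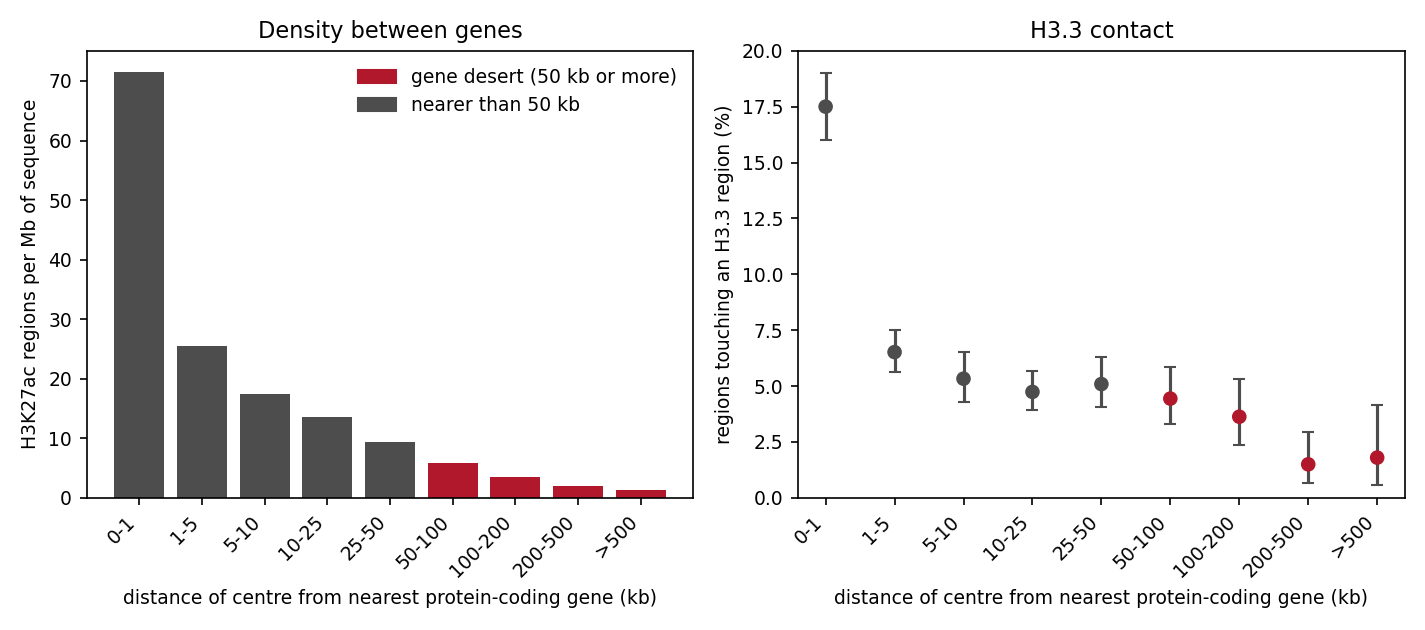
Left, H3K27ac regions narrower than 10 kb per Mb of sequence between protein-coding genes, as bars by distance of the centre from the nearest gene (kb); right, the share of these regions (%) that touched an H3.3 region, with exact 95% intervals. Desert bins (red) run from 5.91 regions per Mb at 50 to 100 kb to 1.38 per Mb beyond 500 kb, and the H3.3 share was 4.44% at 50 to 100 kb and 1.8% beyond 500 kb, against 17.5% within 1 kb of a gene.

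The regions nearest to the boundary show that 50 kb is a line drawn through a continuum. Just inside it were regions of 1290 bp at Tmco5 (50.028 kb), 214 bp at Osgin2 (50.039 kb) and 461 bp at Hspb3 (50.056 kb). Just outside were regions of 2253 bp at Zfp217 (49.995 kb), 1080 bp at Spopl (49.928 kb) and 271 bp at Hnrnpll (49.863 kb). The width limit left out 6 regions that meet the distance rule, of 12184 and 17406 bp near Myc, 13157 bp near Klf9, 13447 bp near Enc1, 14123 bp near Tmem17 and 20605 bp near Klf4. The last lies at chr4:55462459-55483063, 54.376 kb beyond the 3′ end of Klf4, which encodes a Krüppel-like factor of naive pluripotency.

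Desert regions were only slightly narrower than other regions under the same 10 kb limit, and their widths had a long tail. Their median width was 742.5 bp (quartiles 369.2 and 1505 bp, range 177 to 9515 bp), against 804 bp for regions between genes nearer than 50 kb and 810.5 bp for regions centred in protein-coding genes. Together they covered 3.01 Mb. Regions under 500 bp numbered 891 (34.6%), against 32.2% of the nearer regions and 30.9% of those in gene bodies. Regions over 5 kb numbered 50 (1.94%), against 2.86% and 2.89%. Median widths at 50 to 100, 100 to 200, 200 to 500 and over 500 kb were 748.5, 728.5, 736 and 836 bp, with no fall like that of the density.

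The widest desert regions lay near genes of several kinds. The widest, of 9515 bp, was at chr5:33528300-33537814 between Nkx1-1, a homeobox gene, and Fam53a, 67.294 kb from Fam53a. A region of 9002 bp at chr1:113956464-113965465 lay 1724 kb from Cntnap5a, a neurexin family adhesion gene. Of the 10 widest regions it was the most remote. Regions of 8429 bp near Sox2, 8250 bp near Mycn, 8227 bp near the receptor phosphatase gene Ptprk, 7937 bp near the CBP/p300-binding factor gene Cited2, 7926 bp near the Groucho family corepressor gene Tle4, 7837 bp near the zinc finger gene Sall1 and 7645 bp near the actin nucleator gene Cobl were also among the 10 widest. H3.3 regions touched those near Fam53a, Sox2, Mycn, Ptprk, Sall1 and Cobl, and none touched those near Cntnap5a, Cited2 and Tle4.

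The 10 most remote regions had 4 nearest genes between them. The farthest, of 3689 bp, lay 1973 kb from Celf4, which encodes an RNA-binding protein of neurons. The others of the 10 most remote were 3 regions 1766 to 1824 kb from Cntnap5b, a region of 1894 bp 1815 kb from the protocadherin gene Pcdh7, 4 regions of 217 to 1650 bp 1729 to 1737 kb from Cntnap5a, on 1 side of the 9002 bp region, and a second region near Celf4, of 264 bp, at 1761 kb. Of these 10 regions, 0 touched an H3.3 region, against 3.34% of all desert regions.

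H3.3 regions touched few desert regions, and mainly the wide ones. Over all 56957 H3K27ac regions narrower than 10 kb on these chromosomes, 4.22% touched an H3.3 region by 1 bp or more. Of the 2578 desert regions 86 did (3.34%, 2.68 to 4.1%), near that background. Counts of H3.3 contacts at single genes or in small groups are to be read beside this low share. The share was 8.15% (7.64 to 8.68%) for regions between genes nearer than 50 kb, 4.88% (4.23 to 5.59%) for those of them at 10 to 50 kb and 3.3% (3.13 to 3.47%) for regions in gene bodies. Within the deserts it was 4.44% (3.29 to 5.85%) at 50 to 100 kb, 3.63% (2.37 to 5.32%) at 100 to 200 kb, 1.5% (0.651 to 2.94%) at 200 to 500 kb and 1.8% (0.587 to 4.15%) beyond 500 kb. The interval of the 810 regions at 200 kb or more (1.6%, 0.857 to 2.73%) lay below that of the 1768 regions at 50 to 200 kb (4.13%, 3.25 to 5.16%). This cut at 200 kb was not planned, the intervals of the 2 bins beside it overlap, and the difference was not tested.

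Desert regions with H3.3 were wide. The 86 that touched H3.3 had a median width of 2922 bp and a median distance of 93.5 kb, against 720.5 bp and 116 kb for the 2492 that did not. The share was higher at each step of width. It was 0.673% (6 of 891) under 500 bp, 1.28% (9 of 705) at 500 bp to 1 kb, 2.67% (15 of 562) at 1 to 2 kb, 10% (37 of 370, 7.14 to 13.5%) at 2 to 5 kb and 38% (19 of 50, 24.7 to 52.8%) at 5 to 10 kb. A wider region offers more bases to touch, and the share of the central 200 bp that touched H3.3 was 1.28% over all desert regions.

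Among the widest regions, the share with H3.3 was set beside that of regions elsewhere, without a test. At 5 to 10 kb the share was 38% (24.7 to 52.8%) in deserts, 33.1% (39 of 118, 24.7 to 42.3%) between genes at 10 to 50 kb and 10.2% (128 of 1261, 8.54 to 12%) in gene bodies. At 2 to 5 kb it was 10% (7.14 to 13.5%) in deserts, 76 of 606 (10 to 15.4%) at 10 to 50 kb and 7.37% (6.74 to 8.03%) in gene bodies, with overlapping intervals for deserts and gene bodies. With the central 200 bp alone, the shares at 5 to 10 kb were 6% (1.25 to 16.5%) in deserts and 1.59% (0.971 to 2.44%) in gene bodies, and the intervals overlap. Under 500 bp the desert share was the lowest, with overlapping intervals, 0.673% (0.248 to 1.46%) in deserts, 1.35% at 10 to 50 kb and 1.37% (1.18 to 1.58%) in gene bodies. Among desert regions of 2 kb or more the share was 15.3% (28 of 183, 10.4 to 21.3%) at 50 to 100 kb, 15% (16 of 107, 8.8 to 23.1%) at 100 to 200 kb and 9.23% (12 of 130, 4.86 to 15.6%) at 200 kb or more, with intervals that overlap.

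**Figure D2:**
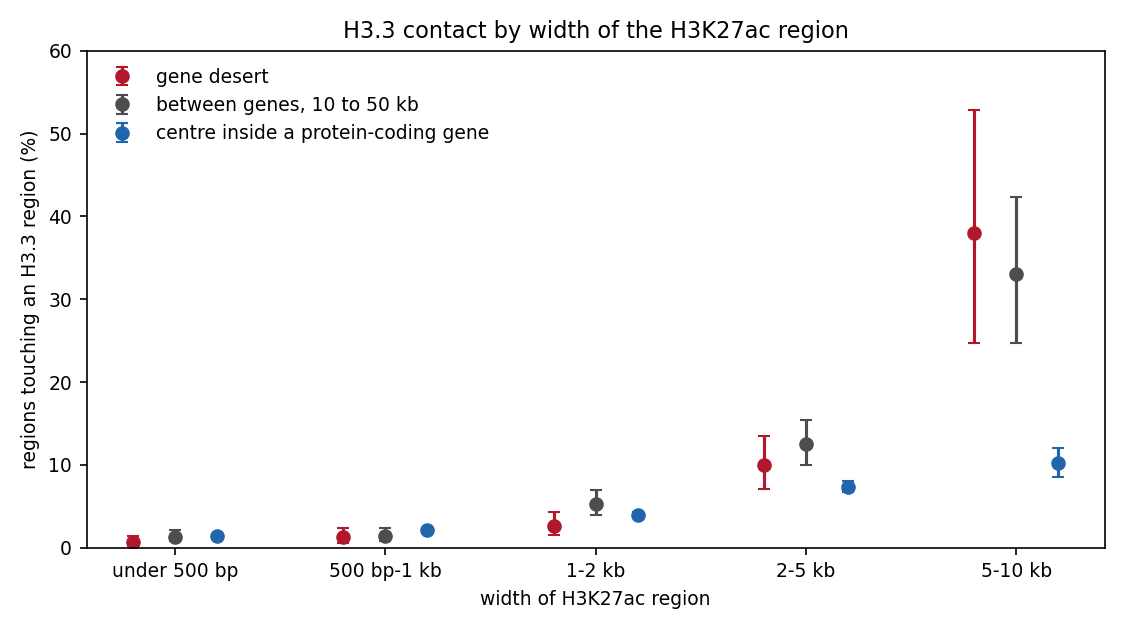
Share of H3K27ac regions (%) that touched an H3.3 region, by width of the H3K27ac region, for gene deserts (red), regions between genes at 10 to 50 kb (grey) and regions centred in protein-coding genes (blue), with exact 95% intervals. The desert share was 0.673% under 500 bp and 38% at 5 to 10 kb, where the share in gene bodies was 10.2%.

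Contacts were small patches within the wider acetylated regions. The H3.3 regions that touched desert regions had a median width of 345 bp (195 to 5770 bp) and covered a median of 13.9% of the acetylated region, and 3 desert regions touched more than 1 of them. Seen from H3.3, 178 H3.3 regions were centred 50 kb or more from a protein-coding gene, with a median width of 360 bp, and 90 of them touched H3K27ac (50.6%, 43 to 58.1%). This compares with 51.6% of 1908 H3.3 regions nearer to a gene and 45.5% of 3291 inside genes. The other 88 desert H3.3 regions touched no H3K27ac region.

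The widest H3.3 contact in a desert is uncertain. An acetylated region of 602 bp at chr17:39843202-39843803 touched an H3.3 region of 5770 bp at chr17:39843008-39848777, which overlaps Rn18s-rs5, a pseudogene related to 18S ribosomal RNA, and the lncRNA gene AY036118. Ribosomal RNA sequence is repeated in many near-identical copies in the genome, so the place of origin of such reads cannot be told apart. The other desert regions with the widest H3.3 contacts were near Chd2, a chromatin remodeller gene (6606 bp with 1320 bp of H3.3), Slc44a1, a choline transporter gene (6588 bp with 1260 bp), Mycn (8250 bp with 1141 bp) and Med13l, a gene of the Mediator kinase module (5449 bp with 3 H3.3 regions, the widest of 1054 bp). Cyria, Kctd15, Irf2bpl, Cntn5 and Sox2 followed, with H3.3 regions of 958, 951, 943, 895 and 851 bp. Mycn and Sox2 were thus near regions that ranked high both by their own width and by that of their H3.3 contact.

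Desert regions were unevenly spread over the deserts. Of 2476 deserts, defined as the sequence 50 kb or more from both genes in gaps of over 100 kb, 903 (36.5%) held at least 1 region and 1573 held 0. The deserts with a region had a median length of 294 kb and the deserts without one 75 kb. Among the 903, 392 held 1 region, 152 held 5 or more and 35 held 10 or more. Those 35 held 506 regions, 19.6% of the total. Of 213 deserts over 1 Mb 47 held 0, and the longest of them were Got2 to Cdh8 (3036 kb), Epha7 to Map3k7 (2896 kb), Otol1 to Sis (2760 kb) and Alcam to Zpld1 (2671 kb).

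The desert between Myc and Gsdmc held the most regions, 32 in 1686 kb. It was followed by Enc1 to Arhgef28 with 31 in 545.6 kb, Tbc1d1 to Gm38457 with 25 in 350.9 kb, Sox2 to Atp11b with 24 in 1002 kb, 1810013L24Rik to Grin2a with 18 in 609 kb and Akr1e1 to Klf6 with 17 in 1152 kb. Density set them in another order. Zfp281 to Nr5a2 held 13 regions in 112.2 kb (116 per Mb) and Rybp to Shq1 16 in 184.5 kb (86.7 per Mb), against 19 per Mb between Myc and Gsdmc. The desert from Cntnap5b to Cdh20 is 4178 kb long and held 15 regions, 3.59 per Mb. The deserts named here were chosen after their values were seen.

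**Figure D3:**
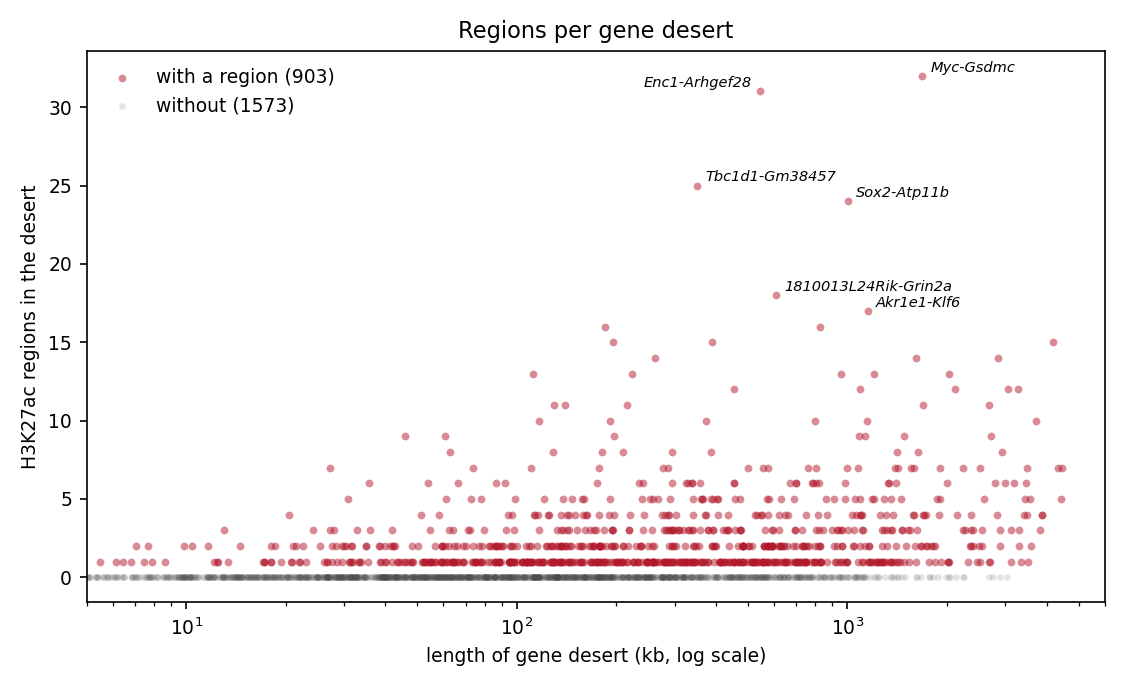
Number of H3K27ac regions in each gene desert (y axis) against the length of the desert in kb (x axis, log scale), for the 903 deserts with a region (red) and the 1573 without (grey). Myc to Gsdmc with 32 regions and Enc1 to Arhgef28 with 31 hold the most, and most deserts with a region lie at 5 or fewer.

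The density of desert regions differed between chromosomes. It ran from 2.2 regions per Mb of desert on chromosome 16, 2.22 on chromosome 7 and 2.29 on chromosome 12 to 4.54 on chromosome 11 and 4.7 on chromosome 13, with a median of 3.12 over chromosomes. Chromosome 1 had the most desert regions, 236, and chromosome 19 the fewest, 55. On chromosome 13, 9.42% of all H3K27ac regions narrower than 10 kb were desert regions, against 2.16% on chromosome 7.

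Nearly 1 in 2 desert regions stood alone. With a joining distance of between 12 and 13 kb, no other H3K27ac region lay within reach of 1244 of the 2578 (48.3%, 46.3 to 50.2%), against 17.9% of the nearer regions between genes and 10.1% of those in gene bodies. Joining all H3K27ac regions closer than this gave 1734 clusters that contain a desert region. In 47 clusters there were 5 or more, and these held 319 desert regions (12.4%). More than 20 kb of desert regions lay in each of 5 clusters, near Myc (46.7 kb in 25 regions), Zfp281 (24.5 kb in 13), Sox2 (23.1 kb in 13), Med13l (22.2 kb in 5) and Tle4 (20.6 kb in 4). The clusters near Ptprk (17.2 kb), Chd2 (16.6 kb), Fam53a (16.4 kb), Arhgef28 (16.3 kb) and Zfp236 (14.5 kb) followed. The Zfp281 cluster continued into the surrounding sequence, with 38 H3K27ac regions of 83.3 kb in all, whereas the Sox2 cluster consisted of desert regions throughout.

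Sox2, a core pluripotency factor gene, had 19 desert regions as their nearest gene, 18 of them beyond its 3′ end. Downstream enhancers of Sox2 are known to be needed for its expression in mouse embryonic stem cells. A run of 13 regions between 75.33 and 117.6 kb from the gene spanned 43.7 kb, from 34726897 to 34770560 on chromosome 3. The widest, at chr3:34754854-34763282 and 106.6 kb from Sox2, measured 8429 bp and was the 1 of the 19 to touch H3.3 (851 bp). The other 12 of the run were 256 to 2670 bp wide. Farther out, regions became narrow and isolated, with 474 bp at 136.3 kb, 591 bp at 143.3 kb, 396 bp at 232.4 kb, 844 bp at 375.5 kb and 203 bp at 481.4 kb. The 1 region before the 5′ end measured 380 bp and lay at 204.4 kb.

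Mycn, which encodes N-MYC, showed a similar layout on a smaller scale. Its 12 desert regions all lay beyond the 3′ end, 95.14 to 220.6 kb away, and covered 17.3 kb. The widest, at chr12:12781143-12789392, measured 8250 bp at 150.8 kb and was the 1 of the 12 to touch H3.3 (1141 bp). The next widest measured 2033 bp at 109.6 kb, 1645 bp at 144.5 kb and 1260 bp at 116.5 kb. The remaining 8 were 274 to 928 bp wide.

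Myc, a transcription factor gene of the same family, had 31 desert regions of 51.4 kb, more than any other gene. The centres of all 31 lay in Pvt1, a lncRNA gene of 222 kb, at distances of 53.45 to 264.6 kb. They measured 213 to 5231 bp, against 203 to 8429 bp for those of Sox2 and 274 to 8250 bp for those of Mycn. The widest measured 5231 bp at 53.45 kb, 5002 bp at 64.58 kb, 3890 bp at 184.6 kb and 3612 bp at 69.71 kb. Of the 31, 0 touched H3.3, against 3.34% of all desert regions. The 2 wider neighbours that the width limit left out lie between them at 84.683 and 100.9 kb, and the one of 17406 bp touched an H3.3 region of 660 bp.

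The desert between Zfp281 and Nr5a2 was the densest of those named among the deserts with the most regions. Some short deserts with fewer regions were denser, such as the one beside Gm572, with 7 regions in 27.26 kb. Zfp281 encodes a zinc finger factor of pluripotent cells and Nr5a2 a nuclear receptor of the naive network. The 8 regions nearest to Zfp281 lay 60.93 to 102.9 kb beyond its 3′ end and measured 204 to 5129 bp, and the 4 widest measured 5129, 3981, 3645 and 2270 bp. The region of 2270 bp is the one that contains the Platr22 promoter printed above, and the centres of 4 desert regions lay in Platr22. On the other side, 5 regions of 363 to 1829 bp lay 80.4 to 105.5 kb beyond the 3′ end of Nr5a2, and 3, of 213, 234 and 1353 bp, lay before its 5′ end, outside this desert. None of these 16 regions touched H3.3, against 3.34% of all desert regions.

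Enc1, which encodes an actin-associated kelch protein, had 18 desert regions at 50.45 to 322.4 kb, of 25.1 kb in all. The region of 5738 bp at chr13:97431661-97437398, which holds the Lncenc1 promoter printed above, was the widest and the 1 of the 18 that touched H3.3. A region of 3698 bp lay at 66.59 kb, and the others measured 246 to 1939 bp. The desert's other flank, Arhgef28, a RhoA exchange factor gene, had 13 regions of 25.1 kb beyond its 3′ end, the widest of 6078 bp, and 0 touched H3.3.

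Klf6, a Krüppel-like factor gene, had 13 desert regions at 57.87 to 558.9 kb, all before its 5′ end. The widest measured 5029 bp at 165.2 kb and 3517 bp at 171.6 kb, within a group of 6 regions between 158.7 and 185.7 kb. Of the 13, 0 touched H3.3, against 3.34% of all desert regions. Jarid2, which encodes a subunit of Polycomb repressive complex 2, had 15 regions before its 5′ end. One of them, of 7501 bp at 51.62 kb, was wide, and the other 14 measured 204 to 1005 bp. The region of 1005 bp touched H3.3 (292 bp).

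Tbl1xr1, a gene of the NCoR and SMRT corepressor complexes, had 21 desert regions on both sides, 13 before the 5′ end and 8 beyond the 3′ end. The widest measured 4244 bp at 140 kb and touched an H3.3 region of 818 bp, and a region of 2953 bp at 343.9 kb touched one of 214 bp. Klf4 had 4 desert regions, of 1015 bp at 67.18 kb, 186 bp at 53.85 kb, 183 bp at 189.7 kb and 1016 bp at 519.6 kb. Of these, 0 touched H3.3, against 3.34% of all desert regions. The region of 20605 bp near Klf4 that the width limit left out touched an H3.3 region of 323 bp.

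**Figure D4:**
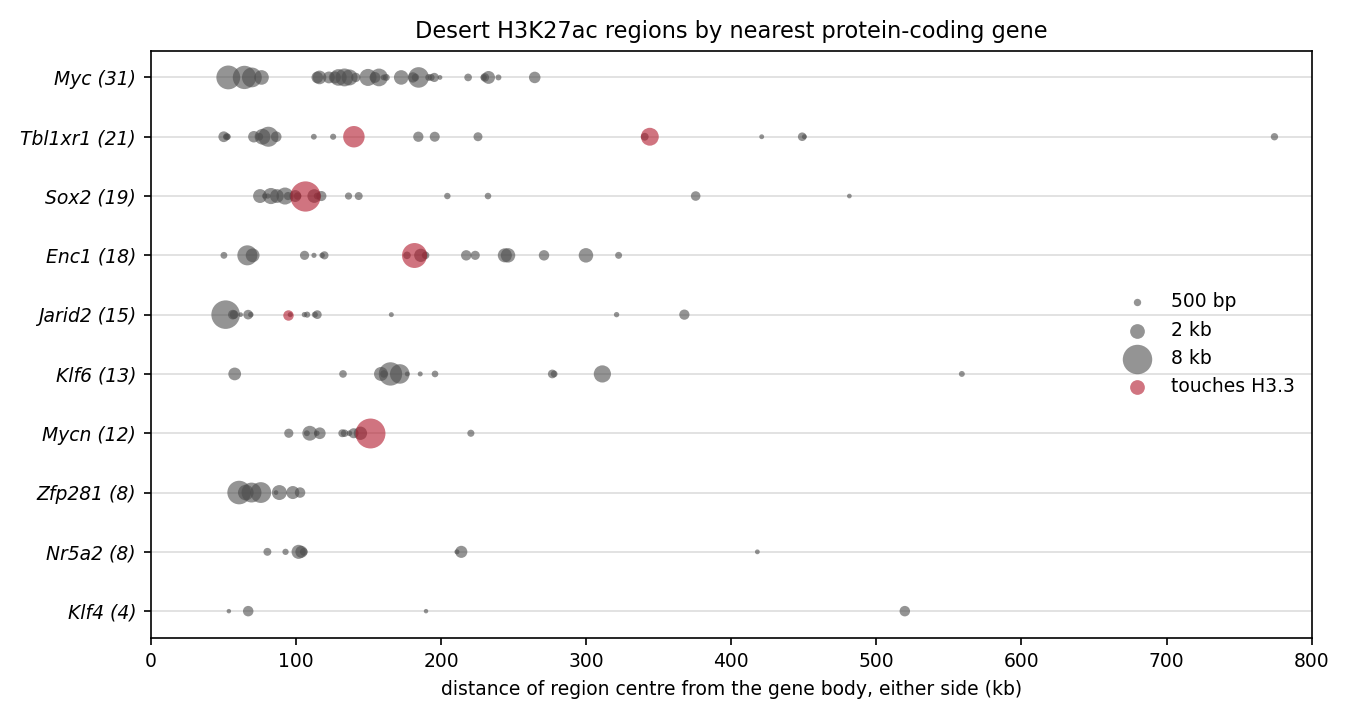
Every desert region (point) of 10 genes by distance of its centre from the gene body in kb, on either side of the gene, with the area of a point scaled to the width of the region and regions that touched H3.3 in red. The number of regions follows each gene name. The widest regions of Sox2 and Mycn touched H3.3. At Myc 0 of 31 did, against 3.34% of all desert regions. Regions of 17406 bp near Myc and of 20605 bp near Klf4, left out by the width limit and not shown, touched H3.3.

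Apart from regions beyond the outermost genes of a chromosome, the nearest gene of a desert region borders a desert. The 50 kb rule thus limits which genes can be counted, and 4070 protein-coding genes border a desert. Over the 20560 protein-coding genes on these chromosomes, 1122 (5.46%) were the nearest gene of a desert region, 591 of them for 1 region, 119 for 5 or more and 18 for 10 or more. After Myc, Tbl1xr1, Sox2 and Enc1 came Gm38457 (18 regions), the tetratricopeptide gene Ttc29 and Jarid2 (15 each), Cntnap5b (14), Arhgef28, Klf6 and the endocytic adaptor gene Dab2 (13 each), and Mycn, the Fanconi anaemia ubiquitin ligase gene Fancl and the cytochrome c oxidase subunit gene Cox7c (12 each). Tle4 had 11, the Polycomb repressive complex 1 subunit gene Rybp, the HSP90 co-chaperone gene Chordc1 and the ciliary gene Tmem17 10 each, and Cobl and 1810013L24Rik 9 each. Of these 20 genes Tle4 had the largest covered length after Myc, 32.8 kb. Of its 11 regions 0 touched H3.3, against 3.34% of all desert regions. Where the strand of the nearest gene was given, 1101 of 1949 desert regions lay before its 5′ end (56.5%, 54.3 to 58.7%) and 848 beyond its 3′ end. The same share was not computed for other H3K27ac regions or for desert sequence, and regions near Myc and Enc1 are missing from it. A preference for either side can therefore not be read from it.

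Gene lists were compared by how many of their members at the edge of a desert had a region in it. Over all 4070 protein-coding genes that border a desert, 1643 (40.4%) did. Longer deserts more often hold a region, so the median length of the bordered deserts and the regions per Mb of them are given beside each list, against 128 kb and 3.07 per Mb over all deserts. Regions per Mb fell with distance from a gene, so they depend on desert length too. The part of desert length in either value was not tested, lists share genes, and 2 genes share a desert. A gene named below as without a region borders either an empty desert or no desert.

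Core and naive pluripotency genes were nearest to 60 desert regions. Of 29 core and naive pluripotency genes on these chromosomes, 16 bordered a desert and 9 of the 16 had a region in it (56.2%, 29.9 to 80.2%), with a median desert length of 119 kb and 9.57 regions per Mb. Sox2 (19 regions), Mycn (12), Nr5a2 (8) and the T-box gene Tbx3 (7) were nearest to the most, and Dppa2, Dppa3, Dppa4 and Dppa5a had 0. Among 17 formative and primed epiblast genes, 4 of 7 did (57.1%, 280 kb, 4.14 per Mb), with 7 regions nearest to the cadherin gene Cdh2, 6 to Sox4 and 1, of 373 bp, to Foxd3, and with 0 at Dnmt3a, Dnmt3b, Etv4 and Etv5. Both intervals (18.4 to 90.1% for the formative list) include the 40.4% of all genes.

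Regulators of later lineages were nearest to 11 desert regions. Of 40 lineage regulators 25 bordered a desert, and 7 of these had a region in it (28%, 12.1 to 49.4%), with a median desert length of 134 kb and 2.02 regions per Mb. The 11 regions were 4 of up to 1412 bp at the neural gene Sox1, 2 at the mesendoderm T-box gene Eomes, and 1 each at Foxa2 (273 bp), Hand1 (260 bp) and 3 other genes. The regions at Sox1, Eomes, Foxa2 and Hand1 did not touch H3.3, and the interval of the list includes 40.4%. Cdx2, Foxa1 and Gata4 had 0. Extraembryonic lineage genes had a region in 5 of 12 cases (41.7%, 176 kb, 4.23 per Mb), and 13 of their 19 regions were those at Dab2. Ligand genes of the FGF, BMP, NODAL, WNT and other signalling families had one in 9 of 14 (64.3%, 424 kb, 2.49 per Mb), with 3 regions each at Dll1 and Tgfb2 and 0 at Bmp2, Bmp5, Bmp6 and Fgf10.

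Transcription factor families at desert edges were counted by 4 lists, whose intervals overlap and whose differences were not tested. Of 12 Krüppel-like and SP genes that border a desert 11 had a region in it (91.7%, 61.5 to 99.8%, with 325 kb and 8.67 per Mb). Klf6 (13 regions), Klf5 and Klf12 (5 each) and Klf4 (4) led. Klf1, Klf11, Klf13 and Klf15, most of which border no desert, had 0. SOX genes had one in 7 of 10 cases (70%, 34.8 to 93.3%; 469 kb, 6.35 per Mb), ZIC and SALL genes in 4 of 5 (80%, 28.4 to 99.5%; 842 kb, 3.49 per Mb) and FOX genes in 11 of 23 (47.8%, 26.8 to 69.4%; 172 kb, 2.72 per Mb). Sall1, a zinc finger gene of kidney development, had 7 regions, up to 7837 bp. Foxn2 had 4 regions of at most 361 bp.

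Adhesion genes, many of them neuronal, bordered long deserts with few regions per Mb. Cadherin genes had one in 12 of 15 cases (80%), protocadherins in 9 of 10 (90%) and contactin, LRRTM and SLITRK genes in 6 of 10 (60%), with median desert lengths of 1274, 906 and 767 kb and 1.93, 1.5 and 1.6 regions per Mb, all under the 3.07 per Mb of all deserts. Over all genes the density was 5.91 per Mb at 50 to 100 kb and 1.38 per Mb beyond 500 kb. The part of desert length in the low values of these lists was not tested. Cdh9 had 8 regions and Cdh2 7, Pcdh17 8 and Pcdh9 7, and Cntn5 and Cntn3 5 each. Cntn5 had a region of 6537 bp 200.7 kb away that touched H3.3 (895 bp).

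Chemosensory receptor genes mostly bordered empty deserts. Olfactory receptor genes had a region in 2 of 25 cases (8%, 40.9 kb, 1.4 per Mb) and vomeronasal receptor genes in 4 of 73 (5.48%, 33.5 kb, 1.35 per Mb). The olfactory genes were Olfr161, with 4 regions, and Olfr267, with 1. Of 18 housekeeping genes 1, the 14-3-3 gene Ywhaz, bordered a desert, with 6 regions of up to 1030 bp.

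**Figure D5:**
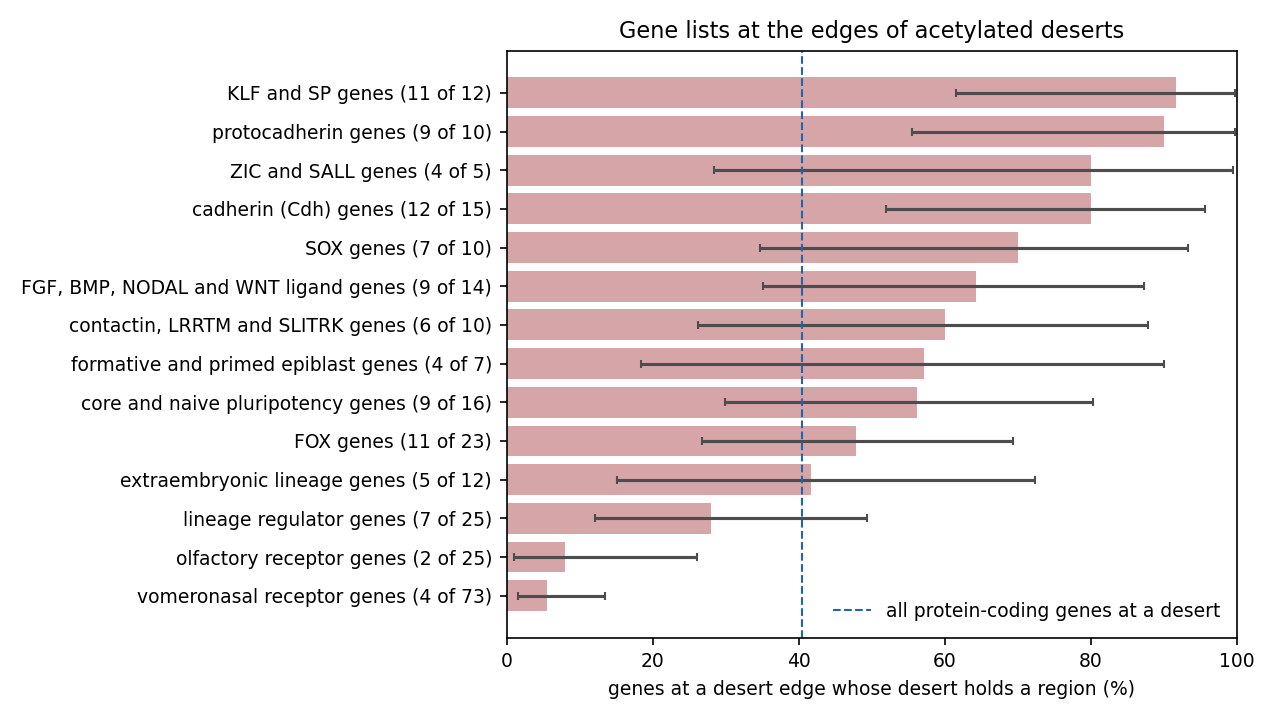
Share of genes at the edge of a desert (%) whose desert holds an H3K27ac region, as bars by gene list with exact 95% intervals and counts after each name; the dashed line is the 40.4% of all protein-coding genes at a desert. Krüppel-like and SP genes (91.7%) and protocadherins (90%) lie above the line and lineage regulators (28%), olfactory (8%) and vomeronasal (5.48%) receptors below it, with an interval for the lineage regulators that includes the line; desert length differs between lists.

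Noncoding genes accounted for some of the addresses in deserts. Centres in lncRNA genes numbered 507 (19.7%), against 16.2% of the nearer regions between genes, while lncRNA genes fill 11.8% of desert sequence. Centres in pseudogenes numbered 39 (1.51%), against 0.912%, with 1.22% of desert sequence in pseudogenes. Pvt1 held the most centres (31), followed by 5730522E02Rik with 11 near Fancl, C330002G04Rik near Trpm3 and Gm31615 with 8 each, Gm31724 with 7, 2610307P16Rik near Sox4 and Gm40931 near Jarid2 with 6 each, and 1700011C11Rik and Gm31340 with 5 each. Lncenc1 held 5 and Platr26 1. A desert region lay within 1 kb of an end of a gene that is not protein-coding in 251 cases (9.74%), against 14.3% of the nearer regions.

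A few desert regions lay in loci that the rule does not count as protein-coding. Centres of 15 (0.582%, 0.326 to 0.958%) lay in antigen receptor loci or their segments, against 2 of the 10747 nearer regions. They were 7 in the T cell receptor alpha locus Tcra (9.97 kb), 4 in Igh (7.42 kb), 3 in Igk (4.32 kb) and 1 in Igl (2.71 kb). Of the 15, 0 touched H3.3, against 3.34% of all desert regions. These loci are long, at 1796 kb for Tcra, 2751 kb for Igh, 3171 kb for Igk and 234 kb for Igl, beside 835.6 Mb of desert sequence. The share of desert sequence they fill was not computed, so no excess of regions in them can be read from these counts. Centres in ribosomal RNA, miRNA, snRNA, snoRNA or tRNA genes numbered 0.

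The imprinted stretch between Rtl1 and Dio3 on chromosome 12, which carries many small RNA genes expressed from the maternal copy, held 4 desert regions, chosen for mention after their values were seen. They measured 1012, 1145, 340 and 5507 bp. The last, at chr12:109946468-109951974 on the Dio3 side, touched an H3.3 region of 764 bp. The first, at chr12:109682125-109683136, contains the mature miRNA miR-882 at chr12:109682207-109682228 (plus strand, RefSeq GRCm38.p6), here with its seed, bases 2 to 8, in capitals.
miR-882: aGGAGAGAguuagcgcauuagu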

How the data were processed

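CUT&RUN was done on nuclei of E14 cells. The submitters' processing notes name Bowtie2, SAMtools, deepTools, MACS2 and mm10 with neither version nor role, and how a consensus was made is not given in the sources used here. What the authors deposited is a pair of coordinate lists, for H3K27ac and H3.3, that carry no score and no value per library. Columns of other samples numbered 0. The starts were read as 0-based and 1 was added.

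Genes came from the RefSeq table of GRCm38.p6. Genes listed below 3 Mb of an autosome (328, of which 105 protein-coding) were left out, since no region of either list starts below 3000039 there. Distance runs from a region's centre to the nearest protein-coding gene body, H3.3 contact needs 1 bp of overlap, and a desert is the part of a gap of over 100 kb that lies 50 kb or more from both genes. A cluster joins regions closer than a distance of between 12 and 13 kb. Shares have exact (Clopper-Pearson) 95% intervals. Strand and promoter windows came from a RefSeq promoter table that lacks some genes, so the side could be given for 1949 of 2578 regions and not for those near Myc or Enc1. Motifs were searched on both strands of promoter windows alone, since no genome sequence was used here, and the regions' own sequence content was not run.

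The desert regions and the gene lists were chosen with earlier results of these data known. The genes named are those of the 10 widest, 10 most remote, 10 with the widest H3.3 contact, the 10 largest clusters, the 20 genes nearest to most regions, the 10 noncoding genes with most centres, up to 4 genes with and 4 without a region per list, and the 3 regions on either side of the distance boundary. Some genes that this rule takes are not reported here. The deserts, printed sequences and the other lncRNAs and loci were added after their values were seen. Computation used Python 3.11.15, NumPy 2.4.6, pandas 2.3.3, SciPy 1.17.1 and Matplotlib 3.10.9, and the code was tested on simulated data. Alternatives varied the distance, its starting point, the width limits, the gene biotypes, chromosome X, the overlap rule, the joining distance and the window.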

Additional observations from a re-analysis of the deposited data

How the results depend on the processing

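Of 48 values under alternative settings 31 stayed within the interval or 1.5 times of the value reported and 17 moved, most of them because the rule itself took more or fewer regions. A distance of 25 kb gave 4131 regions in 2615 clusters. A distance of 100 kb gave 1498 regions in 1081 clusters, an H3.3 share of 2.54% and a share of centres in noncoding genes of 20.1%. Regions of 500 bp or more numbered 1687, were 1172 bp wide at the median and touched H3.3 in 4.74% of cases. Distance from genes of all biotypes except pseudogenes left 1042 regions in 789 clusters, with 2.21% of centres in noncoding genes, which that rule removes by construction. Central 200 bp segments touched H3.3 in 1.28% of desert regions. For regions of 5 to 10 kb, an alternative chosen after seeing the data, they did so in 6% in deserts and 1.59% in gene bodies. The share near an end of a noncoding gene was 7.72% with a 500 bp window and 14.3% with 2.5 kb. Measuring from the nearer edge (2559 regions, H3.3 share 3.28%), no width limit (2584, 3.41%), adding chromosome X (2629, 3.27%), and joining at 5 kb (1971 clusters) or 25 kb (1566) moved no value past these limits. Depth is unknown and no control level could be set beside a region, so a region missing from a desert says only that it is not in the list. No paired analysis was possible because the lists hold no replicates and no result comes from a test.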
